A study of Sus scrofa with 12 samples.

Results

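The fibrous sheath is the cytoskeletal sleeve around the axoneme in the principal piece of the sperm tail. It is assembled late in spermatogenesis, in elongating spermatids, from A-kinase anchoring proteins that form its columns and ribs and tether the regulatory subunits of protein kinase A. Proteins with a docking domain like that of the kinase's regulatory subunit bind the same anchors, and glycolytic enzymes sit on the scaffold. The genes described here are 9 of the 21674 coding genes of the deposited table: the scaffold genes AKAP3, AKAP4 and AKAP14, the docking-domain genes ROPN1, ROPN1L, SPA17 and CABYR, and the interacting proteins FSIP1 and FSIP2. They were chosen by gene symbol, and each symbol matched 1 row of the table.

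The study set early-maturing Hezuo (HZ) boars beside Landrace (LC) boars at 30 and 120 days of age. Testes were obtained by castration at 30 days of age in the groups Ha (HZ) and La (LC) and at 120 days in the groups Hb (HZ) and Lb (LC), with 3 libraries each and 12 in all. No group was treated. Whole testis RNA was depleted of ribosomal RNA and sequenced, and library totals of estimated coding counts ranged from 17165519 to 23758931. A gene was called in a comparison at a Benjamini-Hochberg adjusted p under 0.05 from edgeR's quasi-likelihood test together with an absolute log2 fold change over 1, and fold changes are the second group over the first. The standard error (SE) given with an edgeR estimate is its absolute log2 value over the square root of the test's F statistic. It was derived in this way from the test and is no separate measure of spread. FPKM is the deposited level per length of transcript and per sequenced fragment, and levels of different genes are compared on it alone. The smallest p that exact permutation can reach for a value in 3 and 3 libraries is 0.1, whereas edgeR shares information on variance among genes.

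Markers of the labelled tissue were present at both ages. The 8 Sertoli cell markers summed to 751 to 973 FPKM in Ha and 1508 to 1770 FPKM in La, and to 181 to 288 FPKM in Hb and 311 to 385 FPKM in Lb. The 9 spermatid markers summed to 5.72, 6.9 and 6.38 FPKM in the Ha libraries and to 10.3, 8.99 and 4.23 FPKM in the La libraries. At 120 days they summed to 4974, 5448 and 7280 FPKM in Hb and to 3684, 3195 and 3425 FPKM in Lb, with the protamine gene PRM1 the most abundant in every 120-day library. Hb replicate 1 stood apart in its Leydig cell markers, which summed to 2180 FPKM there against 189 and 128 FPKM in Hb replicates 2 and 3, and to 2708, 4057 and 1712 FPKM in Lb. The breed comparisons of the sheath genes at 120 days are therefore also given without that library.

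The first question was how the sheath genes changed between 30 and 120 days. In HZ boars 8 of the 9 genes were called, all higher at 120 days, where 51.4% of the 16548 genes tested were called and 28.2% were called higher. In LC boars 8 of the 9 were again called higher, where 47.6% of the 16637 genes tested were called and 27.5% were called higher. FSIP2 was the exception in both breeds. In whole testis, fewer cells of a type and less RNA per cell cannot be told apart. Of the 9 genes, 5 held at least 10 estimated counts in every 30-day library. AKAP14 and SPA17 fell under that count at 30 days in both breeds and passed the filter on low counts through the older group. AKAP4 fell under it in Ha but not in La, so it passed through the older group in HZ boars.

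**Figure D1:**
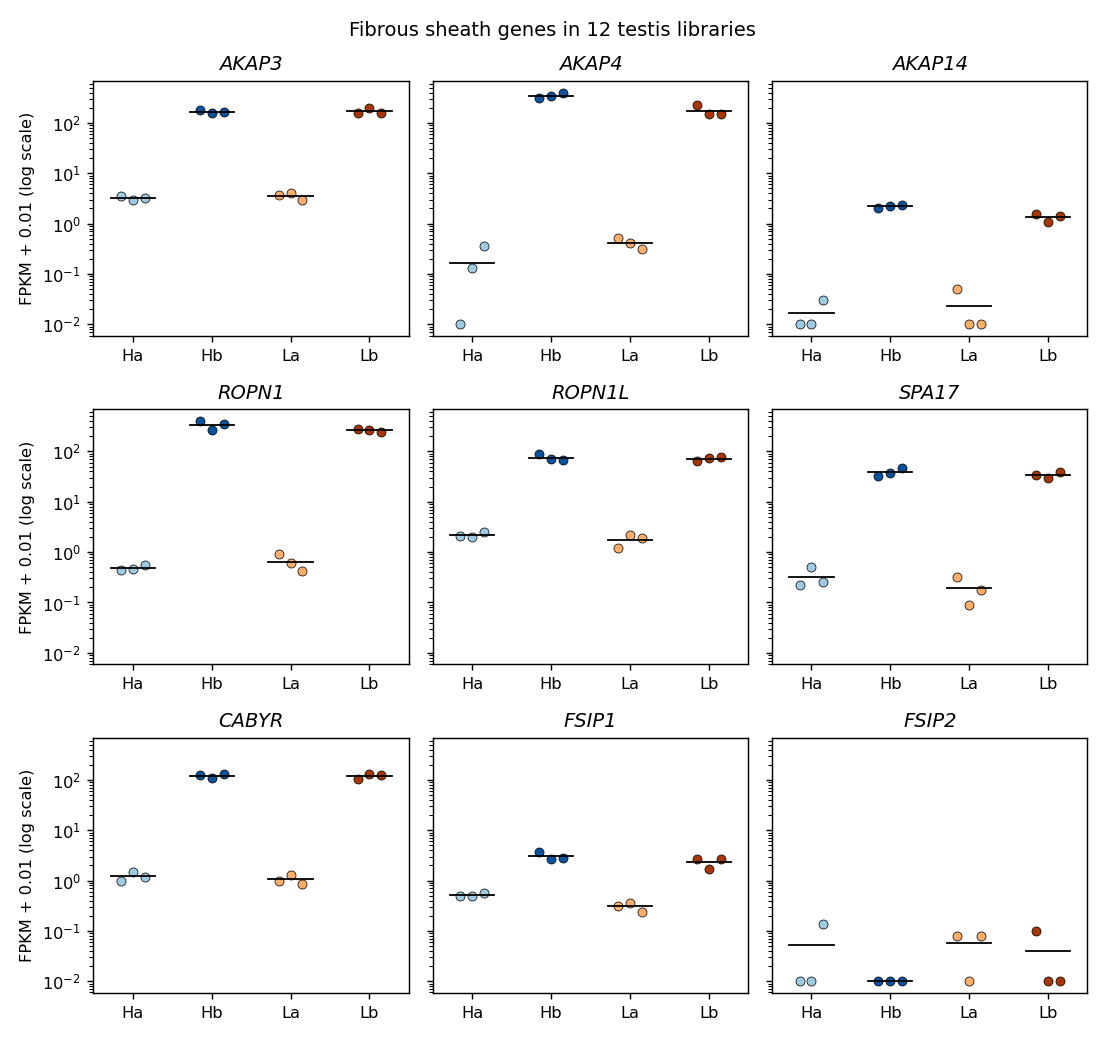
Level of each of the 9 genes in FPKM plus 0.01 on a log scale, for 30-day-old (Ha) and 120-day-old (Hb) HZ boars and 30-day-old (La) and 120-day-old (Lb) LC boars. Points are libraries by replicate number and bars are group means. The ages do not overlap for 8 genes, where 51.4% of all genes tested were called with age in HZ boars and 47.6% in LC boars, while FSIP2 lies at or near 0 in all 4 groups.

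AKAP4 (NCBI Gene 100513773, chrX:43885584-43895142 in Sscrofa11.1) encodes the most abundant structural protein of the sheath, which is made as a precursor in spermatids and processed as the tail is built. It stood at 0, 0.12 and 0.35 FPKM in the Ha libraries and at 306, 345 and 387 FPKM in Hb. In LC boars it stood at 0.5, 0.4 and 0.3 FPKM in La and at 226, 147 and 151 FPKM in Lb. The ages were separated by a wide gap in each breed, and Ha replicate 1 held no count of the gene. The log2 fold change was 11.59 ± 0.87 (SE) in HZ boars (edgeR adjusted p = 3.09e-05) and 9.09 ± 0.31 (SE) in LC boars (edgeR adjusted p = 9.82e-08). The HZ value was 11.01 without Ha replicate 1 and 13.00 without Ha replicate 3, and stayed called. Counts were rounded to whole numbers, summed over each group and scaled by library size with TMM factors. The age ratio was then 3096 in HZ boars, with a 95% exact counting interval of 2282 to 4315. In LC boars the ratio was 547, with an interval of 448 to 675. These intervals cover counting error only.

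AKAP3 (NCBI Gene 100337663, chr5:65788744-65816031) encodes the scaffold to which AKAP4 is added, and which also binds ropporin. It was the most abundant of the 9 at 30 days, with 3.58, 2.98 and 3.26 FPKM in Ha and 3.78, 3.99 and 2.97 FPKM in La. At 120 days it reached 177, 160 and 165 FPKM in Hb and 161, 193 and 156 FPKM in Lb. No library of one age reached the range of the other. Its log2 fold change was 5.78 ± 0.20 (SE) in HZ boars (edgeR adjusted p = 1.73e-06) and 5.31 ± 0.19 (SE) in LC boars (edgeR adjusted p = 1.32e-07). The gene lies 41 bp from NDUFA9 and overlaps DYRK4 over 969 bp. DYRK4 itself stayed between 0.25 and 0.99 FPKM at 120 days, far under AKAP3.

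AKAP14 (NCBI Gene 100512513, chrX:98234469-98255396), a small anchoring protein first known from airway cilia, was the weakest of the 8 genes called. It had 0, 0 and 0.02 FPKM in Ha, 0.04, 0 and 0 FPKM in La, 2.0, 2.23 and 2.33 FPKM in Hb and 1.57, 1.08 and 1.44 FPKM in Lb. Only 2.32 estimated counts fell on it in the 3 Ha libraries together and 5.0 in the 3 La libraries, against 855 in Hb and 558 in Lb. The counts were rounded, which took 2.32 to 2, and scaled in the same way with TMM factors. The ratio of summed counts was then 608 in HZ boars, with a 95% exact counting interval of 168 to 5028. In LC boars the ratio was 123, with an interval of 52.3 to 380. All of the younger counts were in Ha replicate 3 and La replicate 1. Without them the younger groups held 0 counts, a check added after seeing the data. No fold is drawn from that check, since the 0 comes from leaving out the libraries that held counts. The edgeR adjusted p was 1.9e-05 in HZ boars and 5.53e-05 in LC boars. Its whole span of 20928 bp lies inside the span of NKAP, and whether the authors' counting used strand is not given in the sources used here. NKAP stood at 6.8 to 7.33 FPKM in Ha and 9.93 to 12.1 FPKM in Hb. In LC boars it stood at 3.53 to 7.76 FPKM in La and 7.24 to 9.49 FPKM in Lb. Whether reads of NKAP entered the AKAP14 values was not tested.

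ROPN1 (NCBI Gene 100359353, chr13:136395628-136428170) encodes ropporin, a docking-domain protein that binds AKAP3. It rose from 0.43, 0.45 and 0.54 FPKM in Ha to 399, 266 and 350 FPKM in Hb. In LC boars it rose from 0.9, 0.6 and 0.41 FPKM in La to 278, 267 and 239 FPKM in Lb. All 6 older libraries lay at or above 239 FPKM and all 6 younger ones under 1 FPKM. The log2 fold change was 9.97 ± 0.32 (SE) in HZ boars (edgeR adjusted p = 1.72e-06) and 8.99 ± 0.26 (SE) in LC boars (edgeR adjusted p = 6.23e-08). Its relative ROPN1L (NCBI Gene 100620566, chr16:43299-58569), which is found on radial spokes as well as bound to AKAP3, started higher and ended lower. It had 2.04, 1.96 and 2.47 FPKM in Ha and 87.4, 70.5 and 67.8 FPKM in Hb, then 1.21, 2.14 and 1.93 FPKM in La and 64.1, 72.7 and 76.3 FPKM in Lb. The age gap of ROPN1L was clear in each breed, with a log2 fold change of 5.61 ± 0.22 (SE) in HZ boars (edgeR adjusted p = 2.67e-06) and 5.65 ± 0.21 (SE) in LC boars (edgeR adjusted p = 1.42e-07).

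CABYR (NCBI Gene 100511266, chr6:108971340-108997295) encodes a calcium-binding protein of the sheath that is tyrosine phosphorylated during capacitation. Its levels were 0.99, 1.44 and 1.18 FPKM in Ha and 124, 108 and 130 FPKM in Hb. In LC boars they were 0.98, 1.29 and 0.86 FPKM in La and 105, 129 and 127 FPKM in Lb. The breeds overlapped at each age. The log2 fold change with age was 7.19 ± 0.24 (SE) in HZ boars (edgeR adjusted p = 1.72e-06) and 7.29 ± 0.18 (SE) in LC boars (edgeR adjusted p = 3.73e-08). SPA17 (NCBI Gene 100521985, chr9:51918916-51931459), a sperm surface and tail protein with the same docking domain, had 0.21, 0.49 and 0.25 FPKM in Ha and 33.1, 36.6 and 46.8 FPKM in Hb. It had 0.31, 0.08 and 0.17 FPKM in La and 33.3, 29.0 and 39.2 FPKM in Lb. Each younger library held at most 11.2 estimated counts of SPA17, and each older one at least 750. Its log2 fold change was 7.44 ± 0.34 (SE) in HZ boars (edgeR adjusted p = 3.94e-06) and 7.68 ± 0.29 (SE) in LC boars (edgeR adjusted p = 1.53e-07). SPA17 overlaps SIAE over 59 bp, and SIAE stood at 19.1 to 21.4 FPKM in Ha and 2.8 to 7.34 FPKM in Hb.

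FSIP1 (NCBI Gene 100737163, chr1:131510460-131719407), which was found by its binding to AKAP4, had the smallest change of the 8. It stood at 0.49, 0.48 and 0.56 FPKM in Ha and 3.61, 2.66 and 2.84 FPKM in Hb. In LC boars it stood at 0.31, 0.35 and 0.23 FPKM in La and 2.63, 1.71 and 2.68 FPKM in Lb. The lowest older library was still above the highest younger one in each breed. The log2 fold change was 3.02 ± 0.25 (SE) in HZ boars (edgeR adjusted p = 4.67e-05) and 3.28 ± 0.29 (SE) in LC boars (edgeR adjusted p = 1.84e-05).

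FSIP2 (NCBI Gene 100153602, chr15:90902067-91000873), a very large protein of the same kind, did not follow the others. It was listed at 0 in 8 of the 12 libraries, including all 3 of Hb. Its estimated counts were 81.9 in Ha replicate 3, 44.9 in La replicate 1, 42.9 in La replicate 3 and 65.2 in Lb replicate 1, equal to 0.13, 0.07, 0.07 and 0.09 FPKM. No group held a count in all of its libraries, and such values stood beside exact zeros within a group, so no fold change is given. FSIP2 was not tested in Ha vs Hb because of the filter, and in La vs Lb it was not called (edgeR adjusted p = 0.886). Without Lb replicate 1, the library that held all of the Lb counts, Lb was at 0 and edgeR called the gene. FSIP2 then passed the filter through La alone, which fixed its direction as lower at 120 days, so nothing is drawn from that call. The annotated FSIP2-like gene LOC100626097 was also low, at 0.01 to 0.09 FPKM over the 12 libraries. Reads shared with a near copy could have been divided between such genes, and this was not tested.

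Together the 9 genes held 0.0026 to 0.0035% of the coding counts in a 30-day library. They held 0.332%, 0.304% and 0.352% in the Hb libraries and 0.251%, 0.234% and 0.216% in the Lb libraries. AKAP4 alone accounted for 0.132%, 0.147% and 0.167% in Hb and 0.0938%, 0.0611% and 0.0624% in Lb. Every Hb library was above every Lb library in these shares. With AKAP4 taken out, the share of the other genes overlapped between the breeds, and Hb replicate 2 lay under Lb replicate 2.

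The order of the 9 genes by FPKM differed between the ages. At 30 days AKAP3 led, followed by ROPN1L and CABYR, in each of the 6 libraries. Below CABYR, the ranges of neighbours overlapped in Ha, and in La they overlapped from ROPN1L down to SPA17. At 120 days the order in Hb was AKAP4, ROPN1, AKAP3, CABYR, ROPN1L, SPA17, FSIP1, AKAP14 and FSIP2, with mean levels of 346 ± 40.7 FPKM (SD, n = 3) for AKAP4 and 338 ± 67.6 FPKM (SD, n = 3) for ROPN1. AKAP4 exceeded ROPN1 in 2 of the 3 Hb libraries, so their order there is within the spread. In Lb, ROPN1 led with 261 ± 20.4 FPKM (SD, n = 3) and exceeded AKAP4 in all 3 libraries. AKAP4, with 175 ± 44.3 FPKM (SD, n = 3), and AKAP3, with 170 ± 20.1 FPKM (SD, n = 3), overlapped in Lb, and AKAP4 was the higher in 1 of the 3 libraries. From AKAP3 down the order was the same in Hb and Lb, and each neighbour was separated in all 3 libraries of its group.

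The next question was whether the breeds differed at 30 days. Of the 9 genes, 7 passed the filter and 0 were called by edgeR, against 7.62% of the 15648 genes tested. At an unadjusted p under 0.05 there was 1, FSIP1, and DESeq2 called 0 and limma on FPKM 0. FSIP1 was lower in every La library than in any Ha library, with a log2 fold change of -0.78 ± 0.29 (SE, edgeR adjusted p = 0.0954). AKAP4 was at 1.39 ± 0.89 (SE, edgeR adjusted p = 0.302), on 0 to 30.7 counts in Ha and 26.4 to 41.6 in La. Without Ha replicate 1 its estimate was 0.80 and without Ha replicate 3 it was 2.79, neither of them called. AKAP14 and SPA17 were too low to be tested. For those genes a breed difference was not detectable at this depth.

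At 120 days the breeds were compared in Hb vs Lb, and AKAP4 was the gene called among the 8 tested, against 3.85% of the 16311 genes tested. Its log2 fold change was -1.10 ± 0.21 (SE, edgeR adjusted p = 0.0283), that is, its level in Lb was 0.467 times that in Hb. The lowest Hb library, at 306 FPKM, was above the highest Lb library, at 226 FPKM. AKAP14 came next at -0.79 ± 0.21 (SE, edgeR adjusted p = 0.0697) and its groups did not overlap either, but it was not called. ROPN1 was at -0.47 ± 0.20 (SE, edgeR adjusted p = 0.186) and FSIP1 at -0.48 ± 0.25 (SE, edgeR adjusted p = 0.259). The estimates of SPA17, ROPN1L, AKAP3 and CABYR were -0.32, -0.20, -0.16 and -0.10, each within 2 standard errors of 0. All 8 estimates lay under 0, with a median of -0.40, while the median of all genes tested was 0.0044 and 49.7% of them lay under 0. The median was -0.79 for the spermatid markers, -0.39 for the spermatocyte markers and 0.18 for the spermatogonial markers. It was -0.57 for the radial spoke genes and -0.53 for the other sheath components described below, so the low median is not particular to the 8 genes. Their estimates come from the same libraries, so the signs are not independent. With limma on FPKM, where the median of all genes was 0.07 with a pseudocount of 1 and 0.12 with 0.1, the sign of AKAP3 turned, to 0.02 with either. Without Hb replicate 1 AKAP14 was at -0.83 (edgeR adjusted p = 0.109), SPA17 at -0.40, ROPN1 at -0.31, FSIP1 at -0.30, AKAP3 at -0.06, and CABYR and ROPN1L at -0.05, and again AKAP4 was the sheath gene called.

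**Figure D2:**
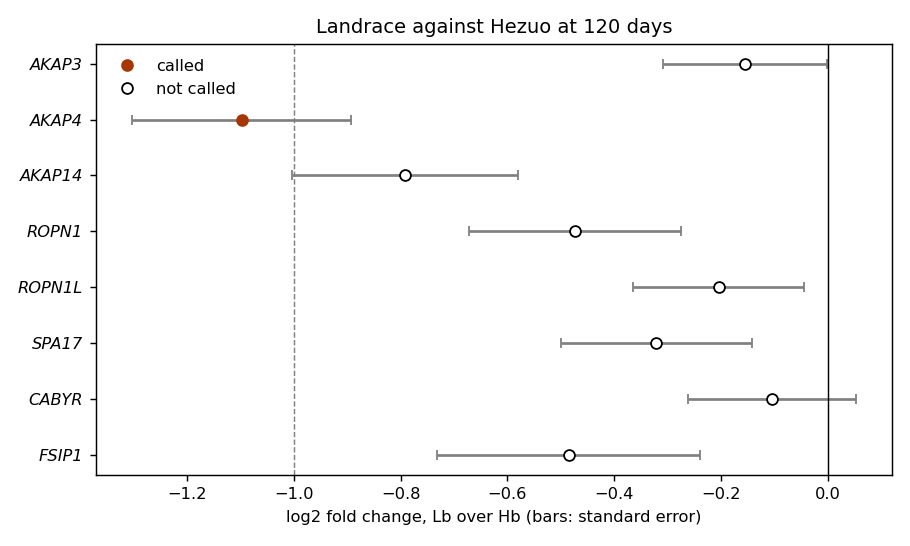
Log2 fold change of 8 sheath genes between 120-day-old LC and HZ boars (Lb over Hb, 3 libraries each), with bars of 1 standard error derived from edgeR's F statistic. The dashed line marks the threshold of -1, and AKAP4 at -1.10 is the gene past it.

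The AKAP4 call depended on the libraries used. It held without Hb replicate 1 (-1.15, edgeR adjusted p = 0.0417), without Hb replicate 2 (-1.13, edgeR adjusted p = 0.0332) and without Lb replicate 1 (-1.35, edgeR adjusted p = 0.0262). It was lost without Hb replicate 3 (-1.0, edgeR adjusted p = 0.0934), without Lb replicate 2 (-0.998, edgeR adjusted p = 0.115) and without Lb replicate 3 (-0.97, edgeR adjusted p = 0.0988). It was also lost when all 12 libraries shared a fit (-1.14, edgeR adjusted p = 0.0842). With the replicate number as a block the call was lost too (-1.13, edgeR adjusted p = 0.0766). Over all settings the adjusted p ran from 3.57e-05 with DESeq2 to 0.115 with edgeR. The count of all genes called moved as well, from 628 to 97 without Lb replicate 2, 119 without Hb replicate 3, 139 without Lb replicate 3, 182 without Lb replicate 1 and 1029 without Hb replicate 2. The summed spermatid markers, like AKAP4, were higher in every Hb library than in any Lb library. Of these markers PRM1, ODF1 and TSSK6 were each apart on FPKM in the same way, and the others overlapped between the breeds. The summed peritubular and stromal markers were lower in Hb, at 102, 101 and 66.5 FPKM, than in Lb, at 530, 516 and 562 FPKM. Of the 9 spermatid markers edgeR called 0 between the breeds, with 4 at an unadjusted p under 0.05, and DESeq2 and limma called 0. Of the 10 peritubular and stromal markers 5 were called higher in Lb, against 432 of the 16311 genes tested. Their part in the AKAP4 difference was not tested.

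Ratios within a library do not depend on how libraries were scaled. AKAP4 over AKAP3 was 1.73, 2.16 and 2.35 in the Hb libraries and 1.40, 0.76 and 0.965 in the Lb libraries on FPKM. AKAP4 over CABYR was 2.47, 3.20 and 2.97 in Hb and 2.14, 1.14 and 1.19 in Lb. Neither ratio overlapped between the breeds, and for each the exact permutation test gave p = 0.1 (two-sided, n = 3 per group), the smallest this design allows. Against the outer dense fibre gene ODF1 the ratio was 0.503, 0.561 and 0.495 in Hb and 0.552, 0.345 and 0.359 in Lb, and the groups overlapped (exact permutation p = 0.3, two-sided). The ratio to GAPDHS ran the other way, at 1.64, 2.0 and 1.97 in Hb and 2.79, 2.03 and 2.80 in Lb, a log2 difference of 0.43 against -1.03 for AKAP3, -1.01 for CABYR and -0.82 for SPA17. The ratio to AKAP14 was also apart, with Hb higher, but differed by less, -0.31 (exact permutation p = 0.1, two-sided), and the ratio to FSCB overlapped at -0.43. Leaving out Hb replicate 1, a check added after seeing the data, also set the groups apart for ROPN1, ROPN1L and FSIP1. Their overlap came from that library alone, so leaving it out fixed the outcome and nothing is drawn from it. ODF1 still overlapped without that library. Against PRM1 the ranges overlapped too, through Lb replicate 1, at 0.0902, 0.0846 and 0.0713 in Hb and 0.0877, 0.0684 and 0.0621 in Lb.

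**Figure D3:**
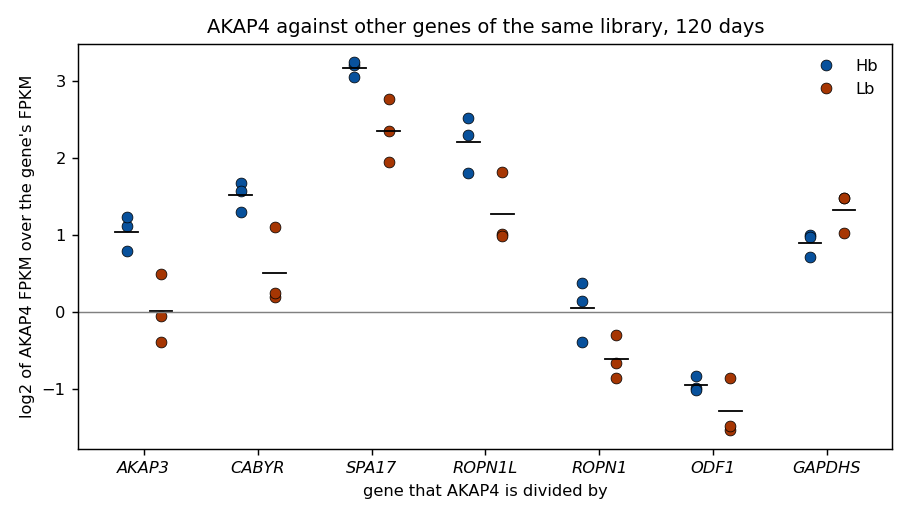
Log2 of the AKAP4 level over the level of another gene in the same 120-day library, on FPKM, in 3 Hb and 3 Lb libraries. Points are libraries and bars are group means, and the groups are apart with Hb higher for AKAP3, CABYR and SPA17, apart with Lb higher for GAPDHS, and overlap for ROPN1L, ROPN1 and ODF1.

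Whether the change with age differed between the breeds was tested as an interaction in all 12 libraries. Of the 9 genes, 0 were called by edgeR, against 5.14% of the 17332 genes tested. At an unadjusted p under 0.05 there were 2, AKAP4 and ROPN1, DESeq2 called 0 and limma on FPKM called 1. For AKAP4 the difference of the log2 age changes, LC minus HZ, was -2.52 ± 0.76 (SE, edgeR adjusted p = 0.0694), and over the other settings tried its adjusted p ran from 0.0064 to 0.16. Without Ha replicate 3, which held 30.7 of the 40.8 AKAP4 counts of Ha, it was -3.90 and called (edgeR adjusted p = 0.0117). Without Ha replicate 1 the AKAP4 difference was -1.89 and not called (edgeR adjusted p = 0.0704). Of the 12 fits that left out a library, 11 did not call it. For ROPN1 the difference was -0.99 ± 0.42 (SE, edgeR adjusted p = 0.179), and for AKAP3 it was -0.49 ± 0.24 (SE, edgeR adjusted p = 0.246). The differences of CABYR, 0.08 ± 0.26 (SE), and ROPN1L, 0.02 ± 0.28 (SE), were smaller than their errors.

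Other components and partners of the sheath were counted from a list of 10 genes. In HZ boars edgeR called 7 of the 10, all higher at 120 days, against 51.4% of all genes tested called and 28.2% called higher, while limma on FPKM called 9, the 2 further genes being lower. In LC boars edgeR called 8, all higher, against 47.6% called and 27.5% called higher, and limma 6 and 7 with pseudocounts of 1 and 0.1. FSCB and GAPDHS in both breeds, and ENO4 in HZ boars, were under the filter count in a 30-day library and passed through the older group, so their direction was fixed by the filter. FSCB, which binds CABYR in the sheath, was at most 0.05 FPKM in any 30-day library and reached 30.6, 35.5 and 28.7 FPKM in Hb and 20.4, 20.01 and 23.0 FPKM in Lb. GAPDHS, the sperm form of glyceraldehyde-3-phosphate dehydrogenase that is tied to the sheath, was at 187, 173 and 197 FPKM in Hb and 80.9, 72.4 and 54.0 FPKM in Lb. It was the gene of this list called between the breeds at 120 days, 1 of 10 against 3.85% of all genes tested, with a log2 fold change of -1.53 ± 0.20 (SE, edgeR adjusted p = 0.0118), a call that was lost without Lb replicate 2, where it was -1.58. FSCB differed by -0.70 ± 0.13 (SE, edgeR adjusted p = 0.0275) and missed the threshold on size. Without Hb replicate 1 GAPDHS was at -1.50 and called (edgeR adjusted p = 0.0179), and FSCB was at -0.69 (edgeR adjusted p = 0.0539). At 30 days 1 of the 8 tested, RHPN1, was called lower in La, against 7.62% of all genes tested. The RHPN1 call was lost in 7 refits, among them the replicate block (-1.36) and limma at a pseudocount of 1 (-0.42). ALDOA, the aldolase of many tissues, was at 112 to 128 FPKM in Ha and 42.7 to 62.0 FPKM in Hb. It was not called by edgeR, but was called lower at 120 days with library totals in place of TMM (-1.03, edgeR adjusted p = 0.000729) and with limma on FPKM (-1.21 and -1.22, limma adjusted p = 0.000252 and 0.000253).

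HK1, the hexokinase of which germ cells make their own forms, rose in both breeds but not to the same extent. It was at 29.5, 27.2 and 37.5 FPKM in Ha and 139, 135 and 160 FPKM in Hb, and at 49.8, 50.02 and 52.1 FPKM in La and 101, 102 and 101 FPKM in Lb. The log2 fold change was 2.70 ± 0.19 (SE) in HZ boars and 1.31 ± 0.09 (SE) in LC boars, and the interaction was called at -1.40 ± 0.19 (SE, edgeR adjusted p = 0.00367). The call in LC boars was lost with limma on FPKM, at 0.986 and 0.999.

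The kinase that the scaffolds anchor was described by 11 genes of cAMP signalling. Of the 10 tested in each breed edgeR called 5 higher and 1 lower at 120 days. Calls in either direction, 6 of 10, were near the 51.4% of all genes called in HZ boars and 47.6% in LC boars. The shares of all genes called higher were 28.2% and 27.5%. SLC9C1 and PKIB, which are among the 5, were under the filter count in a 30-day library and passed through the older group, so their direction was fixed by the filter. In HZ boars limma on FPKM called 5 in all, since PKIG was lost at 0.92 and 0.94. The type II regulatory subunit genes went in opposite directions. PRKAR2A was at 11.9, 9.83 and 9.98 FPKM in Ha and 94.9, 74.7 and 101 FPKM in Hb, while PRKAR2B was at 34.6, 31.7 and 41.8 FPKM in Ha and 8.2, 5.6 and 4.96 FPKM in Hb. In LC boars PRKAR2A rose from 11.4, 9.77 and 13.7 FPKM to 77.9, 46.8 and 46.8 FPKM and PRKAR2B fell from 56.7, 60.1 and 74.5 FPKM to 9.7, 11.0 and 9.24 FPKM. The log2 fold changes of PRKAR2A were 3.59 ± 0.20 (SE) and 2.62 ± 0.25 (SE) in HZ and LC boars (edgeR adjusted p = 9.15e-06 and 2.93e-05), and those of PRKAR2B were -2.02 ± 0.25 (SE) and -2.36 ± 0.15 (SE) (edgeR adjusted p = 0.000321 and 2.48e-06). The main catalytic subunit gene PRKACA was not called at 30.8, 30.9 and 32.4 FPKM in Ha and 43.1, 38.4 and 43.7 FPKM in Hb.

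ADCY10, the soluble adenylyl cyclase that makes cAMP in sperm, was called higher at 120 days, at 6.62, 6.74 and 2.95 FPKM in Hb and 6.25, 7.18 and 6.47 FPKM in Lb, against at most 0.44 FPKM in any younger library. SLC9C1, the sperm sodium-proton exchanger that works with it, was listed at 0 in all 6 younger libraries and at 2.26 to 6.45 FPKM in the 6 older ones. Between the breeds edgeR called 0 of these genes at 30 days and 0 at 120 days, with 3 at an unadjusted p under 0.05 at each age, and DESeq2 and limma called 0 at both. With 9 and 10 genes tested, and 7.62% and 3.85% of all genes called, a count of 0 does not set this list apart.

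Of 13 other A-kinase anchoring protein genes, 2 were called higher and 1 lower in Ha vs Hb, and 2 higher and 3 lower in La vs Lb. That is 3 of the 12 tested, against 51.4% of all genes called and 28.2% called higher in HZ boars, and 5 of 13, against 47.6% called and 27.5% called higher in LC boars. Their median log2 fold change in Ha vs Hb was 0.23 over the 12 tested, against -0.02 for all genes tested, and in La vs Lb it was -0.18 over 13, against 0.01 for all genes tested. AKAP2 lost its call in HZ boars without Hb replicate 3 (-0.87), and AKAP5 its call in LC boars with limma at a pseudocount of 1 (-0.91). AKAP8, an anchoring protein of the nucleus that was chosen after its values were seen, went the other way in LC boars. It was at 2.3, 0.82 and 1.11 FPKM in La and listed at 0 in all 6 older libraries, and against a floor of 3 counts over Lb it was at least 137-fold higher in La (edgeR adjusted p = 0.000147). In Ha it was at 0, 0 and 0.12 FPKM and was not tested with age. AKAP8 was also the gene of this list called between the breeds at 30 days, at 5.12 ± 0.98 (SE, edgeR adjusted p = 0.0105). That is 1 of 13 tested, near the 7.62% of all genes called, so the count does not set this list apart. Ha replicate 3 held all of the Ha counts, and without it the Ha group was at 0, a check added after seeing the data. No fold is drawn from that check, since the 0 comes from leaving out the library that held counts. In both comparisons AKAP8 passed the filter through La alone, so its direction was fixed by the filter. AKAP1, which anchors the kinase at mitochondria, had the largest rise of the list. It was at 2.52, 2.22 and 2.48 FPKM in Ha and 65.0, 76.2 and 86.7 FPKM in Hb, and at 2.5, 1.64 and 2.45 FPKM in La and 54.5, 71.5 and 47.2 FPKM in Lb. The log2 fold change of AKAP1 was 5.46 ± 0.17 (SE) in HZ boars (edgeR adjusted p = 1.67e-06) and 5.03 ± 0.25 (SE) in LC boars (edgeR adjusted p = 6.83e-07). AKAP10 rose by less, from 6.37 to 7.69 FPKM in Ha to 12.0 to 12.2 FPKM in Hb, a call that was lost with library totals in place of TMM (0.999) and with limma on FPKM (0.74 and 0.81).

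Radial spokes, the axonemal arms on which ROPN1L is also found, were covered by 9 genes of the table, of which 7 passed the filter and were called higher at 120 days in each breed, against 28.2% of all genes tested in HZ boars and 27.5% in LC boars. Of the 7, 5 held at most 6.02 estimated counts in any 30-day library and passed through the older group, so their direction was fixed by the filter. RSPH6A, a spoke head protein of sperm, was the gene of this list called between the breeds at 120 days, 1 of 7 against 3.85% of all genes tested. It was at 14.9, 7.39 and 21.7 FPKM in Hb and 3.29, 2.27 and 3.41 FPKM in Lb, a log2 fold change of -2.44 ± 0.39 (SE, edgeR adjusted p = 0.0199), and the call was lost in 4 of the 6 fits that left out a library (without Hb replicate 3 and without each Lb replicate, -2.54 to -2.05), and kept without Hb replicate 1 (-2.41). SPA17 and AKAP14 are also known from ciliated epithelium, and the defining multiciliated markers MCIDAS, GMNC and SNTN reached at most 0.11 FPKM in any library. The other 2 markers of that list were present. FOXJ1, a transcription factor of motile cilia, was at 0.09 to 0.64 FPKM at 30 days and at 19.2, 10.5 and 19.2 FPKM in Hb and 15.0, 11.3 and 11.4 FPKM in Lb. It was called higher at 120 days in HZ boars, at 5.29 ± 0.35 (SE, edgeR adjusted p = 1.78e-05), and in LC boars, at 6.84 ± 0.27 (SE, edgeR adjusted p = 1.99e-07), where its 7 to 12 counts in La put it through the filter by the older group, which fixed its direction. CCNO was at 0.69 to 2.89 FPKM over the 12 libraries. Of the epididymal markers, PAX2 and LCN5 reached at most 0.09 FPKM and CRISP1 at most 0.18 FPKM, while AQP1 was at 1.12 to 15.4 FPKM and ESR1 at 0.78 to 3.37 FPKM. The part of such cells in the levels of SPA17 and AKAP14 was not tested.

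Genes whose profile over the 12 libraries was most like the median profile of the 9 were sought among 15125 named genes outside them, by the Euclidean distance of centred log2 CPM. The nearest were WDR87 (distance 0.843), HSPA1L (0.967), LRRC46 (1.04), SPATA45 (1.13) and ZCCHC13 (1.14). Among the 9 themselves the distance was 1.33 for SPA17, 1.35 for CABYR and 1.53 for AKAP14, and 7.63 for AKAP4 and 15.8 for FSIP2. WDR87 was at 16.5, 8.87 and 13.4 FPKM in Hb and 9.7, 9.24 and 8.09 FPKM in Lb, and at most 0.14 FPKM at 30 days. Between the breeds at 120 days edgeR called 1 of the 5, HSPA1L, against 3.85% of all genes tested. HSPA1L was at 162, 140 and 218 FPKM in Hb and 115, 70.3 and 77.2 FPKM in Lb (-1.10 ± 0.25 SE, edgeR adjusted p = 0.0484). In alternatives added after seeing the data, that call was lost in 5 of the 6 fits that left out a library, all but the fit without Hb replicate 2, with values of -1.37 to -0.89, and also with limma on FPKM (-0.99 and -0.996), RLE factors (-1.12) and the replicate block (-1.11). The HSPA1L gene belongs to a family of similar sequence, and whether reads were shared was not tested. ZCCHC13 was at -0.94 ± 0.15 (SE, edgeR adjusted p = 0.0192) and missed the threshold on size, and WDR87 was at -0.65 ± 0.25 (SE, edgeR adjusted p = 0.160). The distances describe these 12 libraries and carry no test.

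Near the 9 genes, 3 lncRNA transcripts lay within 10 kb, of which LOC110257788 overlaps AKAP4 and 2 transcripts of LOC110257037 lie inside FSIP2. None held more than 2 counts in a library, so 0 were tested by edgeR in either breed, with no p value for any, and no other tool was run on them. Within 50 kb there was 1 more, LOC110256524 at 48882 bp from ROPN1, with 6 to 15 counts in the younger libraries and 1 to 5 in the older ones, also under the filter.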

How the data were processed

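Strand-specific libraries were made from testis RNA of 3 castrated boars in each group, so the p values measure the spread between these boars. Per the submitters' processing notes the authors used fastp 0.18.0, Bowtie2 2.2.8, HISAT2 2.1.0 and StringTie 1.3.4. The deposited tables give estimated counts per coding gene and per lncRNA transcript, and the deposited FPKM values are the authors' levels per length of transcript and per sequenced fragment. The tool that made the counts, and whether it used strand, are not given in the sources used here, so reads in overlapping genes are uncertain. Estimated counts were whole in all 12 libraries for 5 of the 9 genes.

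Estimated counts were rounded to whole numbers and tested with edgeR 4.0.16 in R 4.3.3, with TMM factors, a filter on low counts with a minimum count of 10, and Benjamini-Hochberg adjustment over all genes tested. Each comparison used its 6 libraries, and the interaction used all 12. The tests were tried on simulated data first. Alternatives were DESeq2 1.42.0, limma 3.58.1 on log2(FPKM + 1) and log2(FPKM + 0.1) for genes over 0.1 FPKM in at least 3 libraries, RLE factors, library totals, other filters, all 12 libraries in a shared fit, the replicate number as a block, and leaving out each library. Ratios were tested by exact permutation in scipy 1.17.1, with numpy 2.4.6, pandas 2.3.3, matplotlib 3.10.9 and Python 3.11.15.

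The members and gene lists were chosen with earlier results of these data known. All 9 members are named, and of each list those with a defining role. The 5 genes most like the members were those with the smallest distance to the median profile of the members. Positions were taken from RefSeq for Sscrofa11.1, which matched 9 of the 9 genes, and carry no exon or strand. Promoter and protein sequences were not used here. PAX8 and RSPH10B were not found in the table used.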

Additional observations from a re-analysis of the deposited data

Results flagged for a closer look

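The change with age differed between the breeds, by the interaction test in all 12 libraries, for 12 of the 108 genes tested from the lists used here outside the 9, where 5.14% of all genes tested were called. Of the 12, 5 come from the peritubular and stromal list of 10. Values are the log2 age change in LC boars minus that in HZ boars. Among genes tied to sperm, HK1 differed by -1.40, PRM1 by -1.83 and ACRV1, an acrosomal protein gene, by -2.96. ACRV1 rested on at most 0.08 FPKM in any Ha library and 0.28 FPKM in any La library. Of the spermatogonial genes, DAZL differed by 1.53 and KIT by 1.299. In the peritubular and stromal list the differences were 2.54 for ACTA2, 4.02 for COL1A1, 2.83 for COL1A2, 3.19 for COL3A1 and 2.09 for PDGFRB. The endothelial gene PECAM1 differed by 1.92 and the macrophage gene AIF1 by 1.94. With limma on FPKM, at either pseudocount, 1 of the 9 spermatid markers was called in place of 2. With DESeq2, 4 of the 10 peritubular and stromal genes were called in place of 5. Of the 12 genes, HK1 alone was refitted with libraries left out. With 3 libraries in a group, single libraries were not tested for standing apart.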

How the results depend on the processing

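For the 8 sheath genes with an age fold change, all 120 refits of single genes in each breed kept their direction and their side of the threshold, as did all 90 of the 6 genes refitted in Ha vs La. The age refits of AKAP14 and SPA17, and of AKAP4 in HZ boars, show no stability of direction, since these genes passed the filter through the older group. In Ha vs La AKAP4 ran from 0.80 to 2.79 when a library was left out. Of the other genes called with age, 339 refits did so and 6 lost the call in Ha vs Hb, and 386 did and 4 lost it in La vs Lb. Among these are FSCB, GAPDHS, SLC9C1, PKIB and 5 radial spoke genes in both breeds, ENO4 in HZ boars and AKAP8 in LC boars. Their direction was fixed by the filter, so their refits show no stability of direction either. The sheath genes called in La vs Lb ran from 8 to 9 when a library was left out, FSIP2 being called without Lb replicate 1. That call was lower at 120 days, against the direction of the 8, and its direction was fixed by the filter. In Hb vs Lb 113 refits of 8 sheath genes kept their direction and side of the threshold, 5 lost the call (all AKAP4) and 2 changed sign. In the interaction 123 refits of 7 genes kept both, 3 gained a call (all AKAP4) and 14 changed sign. The count called in Hb vs Lb went from 1 to 0 with all 12 libraries in a shared fit and with the replicate block, and ran from 0 to 1 over fits that left out a library. The interaction count went from 0 to 1 with limma at either pseudocount, and ran from 0 to 1 when a library was left out. For AKAP4 the interaction was called at -1.29 (limma, adjusted p = 0.0064) and -2.21 (limma, adjusted p = 0.0312) for pseudocounts of 1 and 0.1, and at -3.90 without Ha replicate 3 (edgeR adjusted p = 0.0117). The causes were not tested.

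Values that changed sign were all uncalled. AKAP3 in Hb vs Lb was 0.0199 and 0.0200 with limma at pseudocounts of 1 and 0.1. In the interaction ROPN1L was -0.0298 with RLE factors and -0.0281 with DESeq2, and ran from -0.189 to 0.230 when a library was left out. FSIP1 was -0.0595 and SPA17 -0.0410 with limma at a pseudocount of 1. Leaving out a library, CABYR ran from -0.0641 to 0.218 and SPA17 from -0.196 to 0.715. The order by FPKM at 120 days held for 9 of the 9 places when rescaled, and for 7 to 9 when a library was left out, an alternative chosen after seeing the data, with 7 without Hb replicate 2, Hb replicate 3 or Lb replicate 1.

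Same-numbered libraries deviated together little (correlations of -0.02 to 0.05), so they share only a number. In Ha vs Hb each library correlated best with its own number, and in the other comparisons not. The replicate block moved the genes called in Hb vs Lb from 628 to 154 and AKAP4 to -1.13 (edgeR adjusted p = 0.0766). DESeq2 called 1176 and the shared fit 1258. In the interaction edgeR called 890 genes and DESeq2 1363. Library totals in place of TMM moved the median of all genes from -0.02 to -0.32 in Ha vs Hb, from 0.01 to -0.16 in La vs Lb and from 0.02 to 0.17 in the interaction. AKAP14, SPA17 and AKAP4 rested on few counts at 30 days, at most 41.6 in a library.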
